A study of Mus musculus with 4 samples.

Results

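Fos, Fosb, Jun, Junb, Jund, Egr1, Atf3, Ier2, Dusp1 and Btg2, which belong to the immediate early genes, were followed across marker-gated cell types of the mouse embryonic head. The 10 genes were taken by name from the 20719 genes listed over the 4 libraries, and each had UMIs (unique molecular identifiers, which count captured molecules) in every library. They were singled out with their levels across cell types and libraries already known, so those levels are a description and carry no test. The cells came from heads of E10.5 embryos labelled Apcdd1+/- (2 libraries) or WT (2 libraries). Apcdd1 encodes a membrane protein that inhibits Wnt signalling, and Apcdd1+/- embryos carry 1 altered copy of the gene. The labels give no strain background, describe neither the allele nor the litter, and do not say whether a library holds 1 embryo or a pool. The p-values therefore measure only the spread between these libraries, which may be technical. Both genotypes went through the same steps: overnight storage of the dissected heads, enzymatic dissociation, removal of dead cells by sorting, and droplet capture.

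Immediate early genes are transcribed within minutes of a stimulus such as growth factor signalling, without new protein synthesis, and their mRNAs are short-lived. Fos and Jun family proteins pair to form the transcription factor AP-1, Egr1 is a zinc-finger transcription factor, and Atf3 is a stress-responsive factor of the ATF/CREB family. In the developing nervous system Btg2 marks progenitors that are about to produce neurons, and in many tissues the whole group also responds to handling and enzymatic dissociation.

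The bases before the start site were compared because Fos is a classical target of CREB, whose response element has the core TGACGT. RefSeq promoter entries (GRCm38.p6) matched 8 of the 10 genes, all but Egr1 and Ier2. The core TGACGT, on either strand, was found in the 250 bases before the start site of Fos, Atf3, Dusp1 and Btg2, which is 4 of these 8 genes (50.0%), against 2125 of all 32851 such windows (6.47%). The palindrome TGACGTCA, which contains the core on both strands, was found for Dusp1 and Btg2, against 508 windows in all (1.55%). Neither an AP-1 site (TGANTCA, 6.75% of all windows) nor a CArG box (1.47%) was found in any of these 8 windows, and TATAAA was found for Fos (12.4% of all windows). A match is only a description of the letters, and the lack of a match holds for these 250 bases alone. Sites further from the start, and the promoters of Egr1 and Ier2, were not read. The 250 bases are given for the 4 genes with a match, read in the gene's direction, with each TGACGT or its reverse complement in capitals. In mm10 the Fos gene, with 4 exons, runs over chr12:85473890-85477273, and the single-exon Jun gene over chr4:95049034-95052222 on the minus strand. The window of Fos lies at chr12:85473640-85473889 on the plus strand, and the windows of Atf3 (chr1:191183334-191183583), Dusp1 (chr17:26508473-26508722) and Btg2 (chr1:134079156-134079405) lie on the minus strand. The windows of Atf3 and Dusp1 lie inside the annotated genes, which run over chr1:191170296-191218039 and chr17:26505590-26562128. The bases before the upstream ends of these 2 genes were not read.
Fos: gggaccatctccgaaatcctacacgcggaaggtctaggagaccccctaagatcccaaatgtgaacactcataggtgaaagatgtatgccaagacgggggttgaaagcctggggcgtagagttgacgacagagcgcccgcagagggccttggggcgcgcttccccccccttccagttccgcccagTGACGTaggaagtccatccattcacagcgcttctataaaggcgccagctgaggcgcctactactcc
Atf3: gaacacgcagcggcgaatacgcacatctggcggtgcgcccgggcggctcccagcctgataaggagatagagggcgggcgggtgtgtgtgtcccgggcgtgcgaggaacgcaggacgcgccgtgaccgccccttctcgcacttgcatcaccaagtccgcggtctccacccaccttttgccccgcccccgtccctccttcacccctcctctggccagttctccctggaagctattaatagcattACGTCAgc
Dusp1: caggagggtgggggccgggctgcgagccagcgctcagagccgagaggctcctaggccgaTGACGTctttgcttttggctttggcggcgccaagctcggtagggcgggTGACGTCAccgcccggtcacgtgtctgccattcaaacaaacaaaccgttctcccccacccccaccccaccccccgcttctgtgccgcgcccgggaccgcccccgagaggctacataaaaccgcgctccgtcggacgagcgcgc
Btg2: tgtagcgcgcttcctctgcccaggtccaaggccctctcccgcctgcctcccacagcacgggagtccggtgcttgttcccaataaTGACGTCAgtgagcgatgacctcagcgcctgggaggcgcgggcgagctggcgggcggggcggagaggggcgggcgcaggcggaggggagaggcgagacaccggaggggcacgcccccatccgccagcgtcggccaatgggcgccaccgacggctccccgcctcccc
The core ran over bases 66 to 61 before the start of Fos, bases 8 to 3 before that of Atf3 and, as part of the palindrome, bases 166 to 159 before that of Btg2. Dusp1 held the palindrome at bases 143 to 136 and a second core at bases 191 to 186.

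After filtering, 24259 of the 25074 deposited cells were kept, 9501 and 5544 in the Apcdd1+/- labelled libraries (replicates 1 and 2) and 6258 and 2956 in the WT libraries (replicates 1 and 2). The Apcdd1+/- libraries held 96433545 and 58288369 UMIs, against 82042062 and 55039664 in the WT libraries, and the median per cell was 9118 and 8934.5 UMIs in Apcdd1+/- libraries against 11506 and 17133.5 UMIs in WT libraries. Apcdd1 itself did not separate the labels: it stood at 77.4 and 49.5 counts per 1000000 UMIs (CPM) in the libraries labelled Apcdd1+/-, against 63.4 and 60.8 CPM in those labelled WT. Cells were gated on their markers into neural progenitors (15585 cells), neuroblasts (824), neurons (1362), mesenchyme (2307), epithelium (525), endothelium (217), macrophages (165) and erythroid cells (130), and a further 1511 cells with markers of more than 1 lineage were left out. No gate had markers of another class among its 10 leading genes. Between 6 and 25 bead barcodes were shared by any pair of libraries, at most 0.382% of the shorter list. In endothelium, Apcdd1+/- replicate 2 and WT replicate 2 had only 18 and 14 cells, so means over libraries leave those out.

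Jun, a core subunit of AP-1, was found in every class and was far lower in erythroid cells than in any other. In neural progenitors it stood at 397 and 164 CPM in the Apcdd1+/- libraries, against 434 and 380 CPM in the WT libraries, so that a single Apcdd1+/- library lay far below the other 3. Among all 14 classes and subclasses the highest mean was in floor plate progenitors (493 ± 113 CPM, SD, n = 4 libraries) and the lowest outside erythroid cells in sensory neurons (200 ± 64.2 CPM). Erythroid cells had 13.5 ± 4.46 CPM, and only there did all libraries lie below all libraries of the class ranked next above. All other neighbouring pairs in the order overlapped. Relative to progenitors of the same library, neurons had a lower Jun level in 4 of 4 libraries, with ratios of 0.51 to 0.98.

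Fos, the inducible partner of Jun, was highest in macrophages, at 64.4 ± 27.1 CPM (SD, n = 4), followed by floor plate progenitors (43.9 ± 22.0 CPM) and epithelium (35.4 ± 13.6 CPM). Macrophages exceeded progenitors of the same library in 4 of 4 libraries, with ratios of 1.49 to 6.93. The lowest mean was in telencephalon progenitors, at 11.6 ± 5.19 CPM, although erythroid cells, at 2.73 and 77.8 CPM in the Apcdd1+/- libraries against 1.91 and 8.08 CPM in the WT libraries, averaged 4.24 CPM without Apcdd1+/- replicate 2 and were then lowest. Neighbouring classes in this order overlapped throughout. Fosb, its close relative, followed nearly the same order, with 17.8 ± 5.68 CPM in macrophages, 15.4 ± 12.3 CPM in floor plate progenitors and 13.7 ± 8.57 CPM in epithelium. Across the 14 classes the log2 levels of Fos and Fosb had a Pearson correlation of 0.93, the highest of Fosb with any of the 6442 genes compared. The classes share the same libraries, and no test goes with that value.

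Junb, an AP-1 subunit that often acts against Jun in growth control, was highest in vascular and immune cells. It averaged 14.8 ± 4.70 CPM in macrophages (n = 4) and 12.9 ± 1.47 CPM in endothelium (n = 2). Both endothelial libraries with at least 20 cells lay above every library of every class ranked below. They held 19 Junb UMIs in 120 cells (Apcdd1+/- replicate 1) and 12 in 65 (WT replicate 1). The endothelial libraries left out of the mean held 12 in 18 cells (Apcdd1+/- replicate 2) and 10 in 14 (WT replicate 2). In neural progenitors it stood at 1.33 and 0.436 CPM in the Apcdd1+/- libraries, against 1.23 and 0.937 CPM in the WT libraries. Macrophages exceeded progenitors of the same library in 4 of 4 libraries, by 6.39-fold to 42.4-fold. Jund, the constitutive member of the Jun family, was rarely captured: over all cells it stood at 0.767 and 1.25 CPM in the Apcdd1+/- libraries, against 1.21 and 1.85 CPM in the WT libraries. No Jund UMI was found in the erythroid cells of any library, where a count of 0 allows 3.46 to 5.74 CPM, so the small classes cannot be ordered for Jund at this depth.

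**Figure D1:**
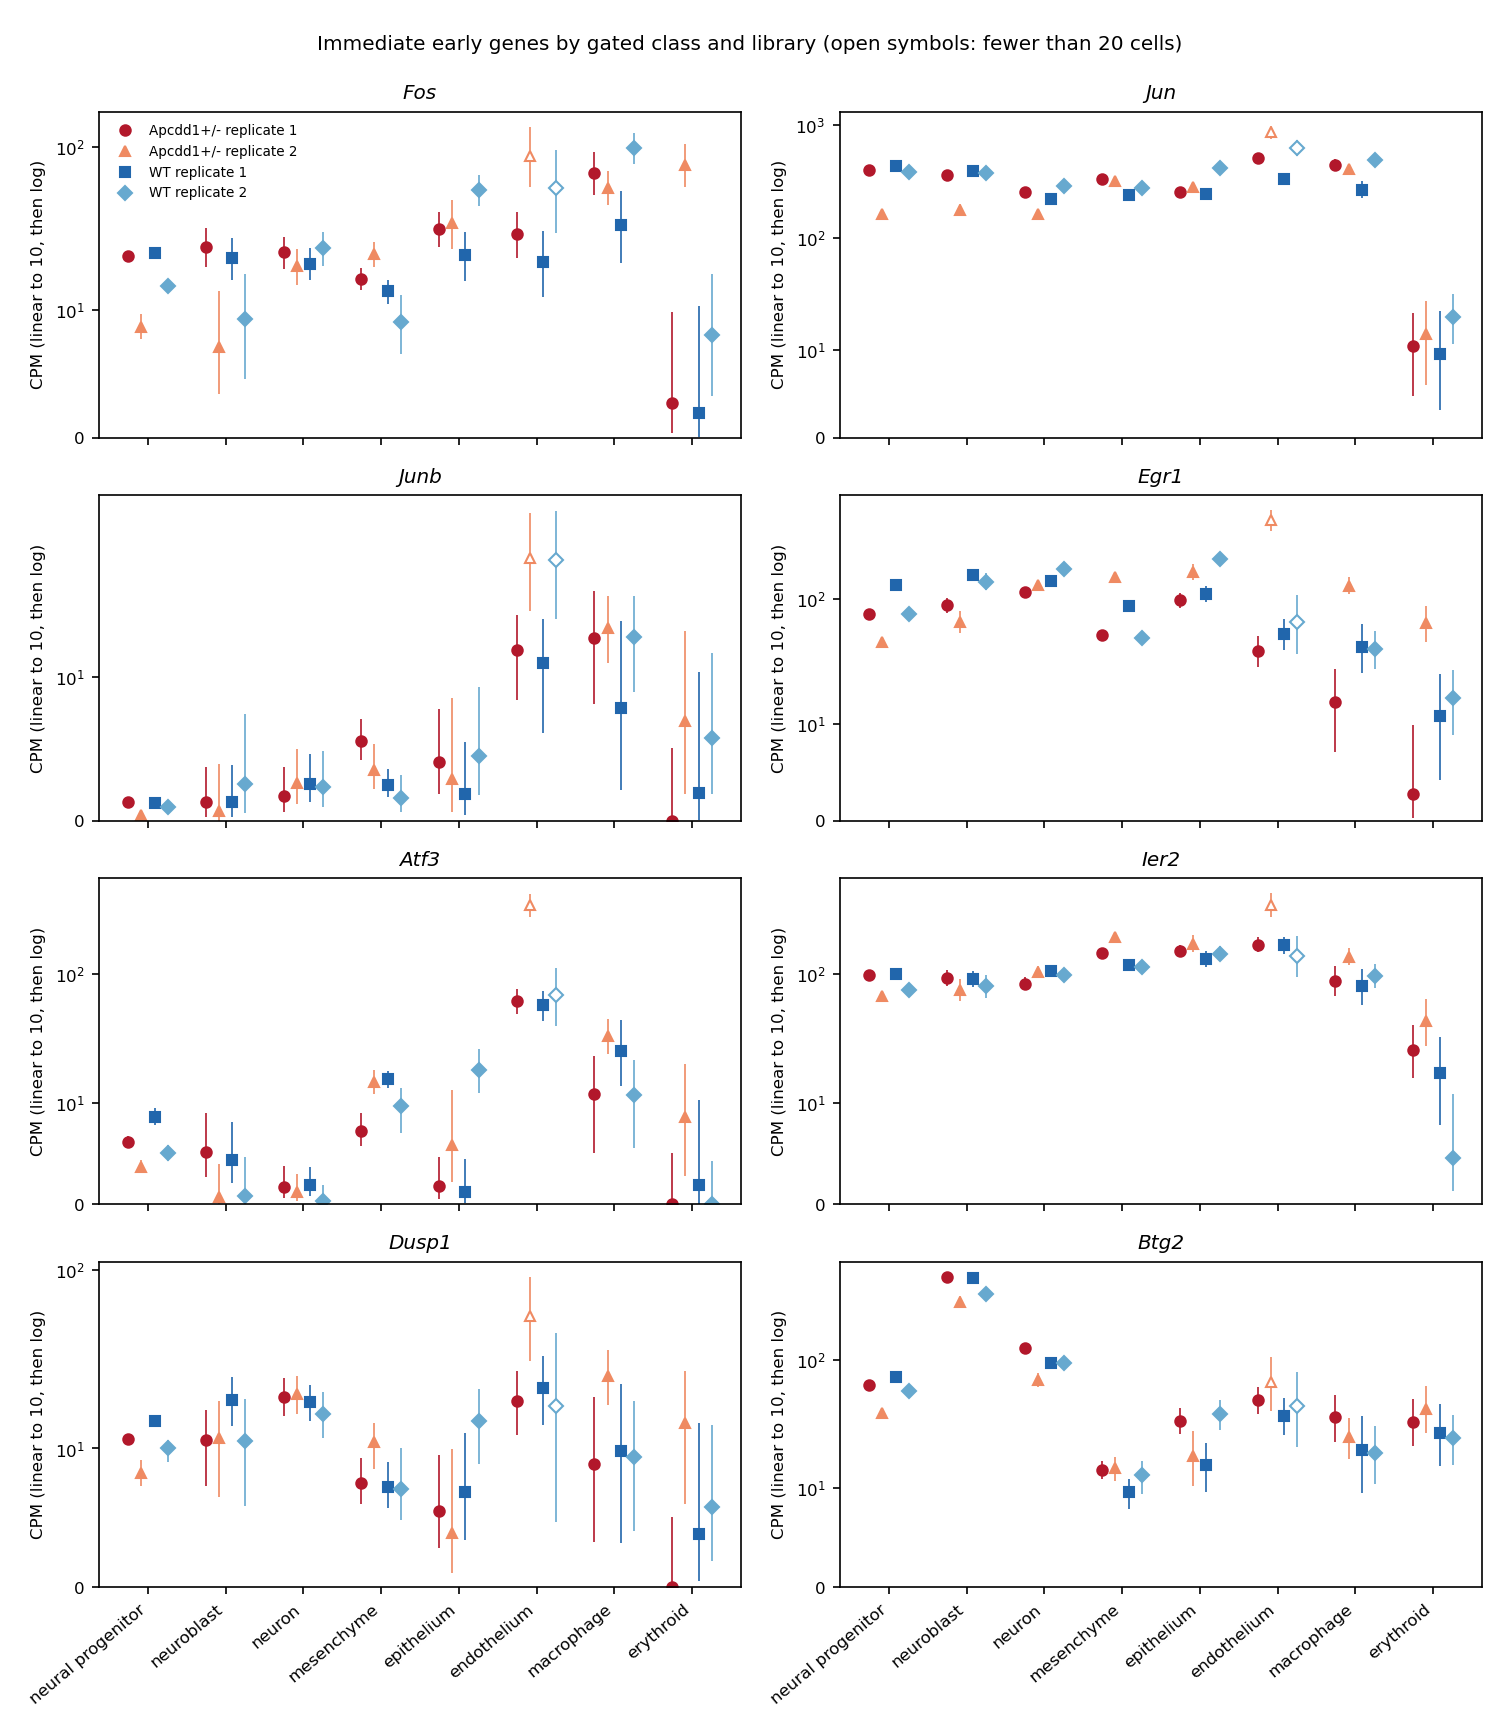
CPM of 8 of the genes (y axis, linear up to 10 CPM and logarithmic above) in 8 gated classes (x axis) for each library, with exact Poisson intervals as bars, which cover counting error only. Btg2 peaks in neuroblasts (283 to 443 CPM) in all 4 libraries, Atf3 and Junb are highest in endothelium and macrophages, and Apcdd1+/- replicate 2 (orange triangles) lies lowest for Jun in neural progenitors and highest for Egr1 in mesenchyme, endothelium, macrophages and erythroid cells.

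Egr1, a growth-factor and activity-responsive factor, was higher in neurons than in progenitors of the same library in 4 of 4 libraries, with ratios of 1.08 to 2.84, and higher in neuroblasts than in progenitors in 4 of 4 libraries, with ratios of 1.17 to 1.80. In neurons it stood at 112 and 128 CPM in the Apcdd1+/- libraries, against 139 and 172 CPM in the WT libraries. The highest means were in floor plate progenitors (159 ± 101 CPM), epithelium (145 ± 51.1 CPM) and sensory neurons (143 ± 43.7 CPM), and the lowest in erythroid cells (23.6 ± 27.5 CPM), and each neighbouring pair of classes overlapped. Atf3, the stress-responsive factor, was highest in endothelium, at 61.6 CPM in Apcdd1+/- replicate 1 against 57.3 CPM in WT replicate 1, above every library of every other class. In mesenchyme it exceeded progenitors of the same library in 4 of 4 libraries, with ratios of 1.18 to 3.95, and in neurons it was below progenitors in 4 of 4, with ratios of 0.07 to 0.31.

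Ier2, a short nuclear protein induced by growth factors, was broadly spread, with 167 ± 1.92 CPM in endothelium (n = 2), 149 ± 17.0 CPM in epithelium and 142 ± 37.5 CPM in mesenchyme (n = 4 each). Each of these classes exceeded progenitors of the same library in every library with enough cells, with ratios of 1.67 to 1.71 in endothelium, 1.32 to 2.53 in epithelium and 1.18 to 2.86 in mesenchyme. Dusp1, the phosphatase that switches off MAP kinases, had its lowest mean in erythroid cells (5.86 ± 5.83 CPM), and its other class means ran from 7.60 ± 4.56 CPM in epithelium to 20.0 ± 2.40 CPM in endothelium. It was higher in neurons than in progenitors in 4 of 4 libraries, with ratios of 1.27 to 2.45.

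Btg2, which restrains cell division and marks neurogenic progenitors, stood out in a single class. Neuroblasts had 443 and 283 CPM in the Apcdd1+/- libraries and 434 and 323 CPM in the WT libraries. Neural progenitors had 63.6 and 38.4 CPM in the Apcdd1+/- libraries and 72.9 and 57.0 CPM in the WT libraries. Every neuroblast library lay above every library of every other class, and the ratio of neuroblasts to progenitors within a library was 5.67 to 7.36. Neurons stood between them, with a ratio to progenitors of 1.29 to 1.93. Mesenchyme was lowest, at 12.5 ± 2.07 CPM. Among the 6442 genes compared across the 14 classes, those most like Btg2 were Dll1 (r = 0.95), Gadd45g (r = 0.92) and Zc3h12c (r = 0.91). Dll1 is itself among the 12 neuroblast markers used for the gate, and Btg2 is not. Jun was most like Spcs2, Tmed7 and Coq7 (r = 0.97 each), Egr1 like Itsn1 and Socs7 (0.95 and 0.94), and Ier2 like Ap3m1 (0.97). Junb was most like Ostf1 (0.97), Atf3 like Ost4 (0.95) and Dusp1 like Fam102b (0.87). Fos, after Fosb, which lies under the minimum level for the comparison, was most like Elf1 (0.77). Mean Jun was 13.5 CPM in erythroid cells and at least 200 CPM in every other class. Mean Ier2 was 22.8 CPM there and at least 77.3 CPM elsewhere. A gap of this kind in 1 class can by itself give a high r with any gene low in erythroid cells. No r was computed without that class.

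The Btg2 level also climbed within the neural cells as more neuroblast markers were detected in a cell. In cells with none of these markers it was 47.9 and 25.1 CPM in the Apcdd1+/- libraries and 48.8 and 35.0 CPM in the WT libraries. With 3 markers it was 92.9 and 53.6 CPM in the Apcdd1+/- libraries and 107 and 75.7 CPM in the WT libraries. With 8 or more it was 546 and 281 CPM in the Apcdd1+/- libraries and 505 and 355 CPM in the WT libraries. All 4 libraries climbed at each step from 2 markers upwards, while Jun stayed between 147 and 212 CPM in Apcdd1+/- replicate 2 and between 356 and 489 CPM in the other 3 libraries over the whole series. The median depth also climbed from 0 to 2 markers in 4 of 4 libraries, to 18856 UMIs with 2 markers against 12348 UMIs with none in WT replicate 2. From 3 markers to 8 or more, where Btg2 climbed further, the median depth was lower at the end, at 8409.5 against 10444.5 UMIs in Apcdd1+/- replicate 1, 9646 against 10677 in Apcdd1+/- replicate 2, 10874 against 12826.5 in WT replicate 1 and 16113 against 19935 in WT replicate 2.

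**Figure D2:**
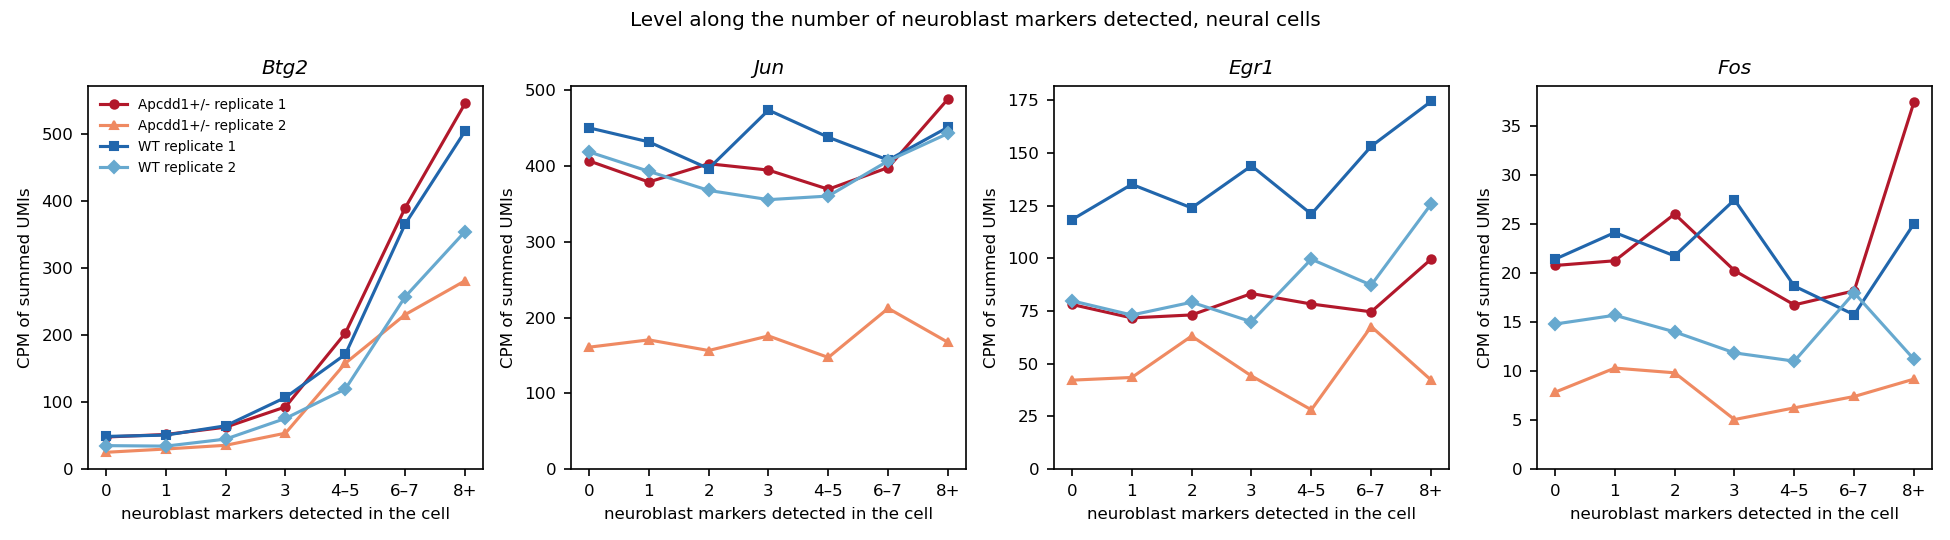
CPM of Btg2, Jun, Egr1 and Fos (y axes, linear from 0) in neural cells with fewer than 6 neuron markers, grouped by how many of the 12 neuroblast markers they had (x axis), 1 line per library. Btg2 climbs to 281 to 546 CPM in all 4 libraries, whereas Jun in Apcdd1+/- replicate 2 stays below the other libraries at every step.

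Shares of cells with a UMI were compared after every cell had been thinned to 2000 UMIs. The Jun and Btg2 shares pool the cells of all 4 libraries. Their intervals cover counting error only, not the spread between libraries, where Jun in progenitors ran from 164 to 434 CPM. Jun was detected in 42.3% of 15490 thinned neural progenitors (exact binomial 95% interval 41.5 to 43.0%), against 0.781% of 128 erythroid cells (0.0198 to 4.28%), taken as the background class, and in 75.7% and 21.5% of the unthinned cells at median depths of 10175 and 19096.5 UMIs. Btg2 was detected in 49.0% of 806 thinned neuroblasts (45.5 to 52.5%), against 10.4% of neural progenitors (9.96 to 10.9%) and 3.91% of erythroid cells (1.28 to 8.88%), and in 82.0%, 35.5% and 40.8% of the unthinned cells, with a median depth of 7509 UMIs in neuroblasts. Fos was detected in 4.24% and 1.56% of thinned neural progenitors in the Apcdd1+/- libraries, against 4.76% and 2.89% in the WT libraries. Among thinned erythroid cells it was detected only in Apcdd1+/- replicate 2 (12.5% of 32 cells), and the intervals of the other 3 libraries, with 49, 21 and 26 cells and no Fos UMI, ran up to 7.25%, 16.1% and 13.2%. Erythroid cells are also not free of these genes. Unthinned, 13 of the 32 cells in Apcdd1+/- replicate 2 held 45 Fos UMIs, and 40.8% of all erythroid cells had a Btg2 UMI. The class is thus few in cells and no clean background. The share of progenitors with a Fos UMI could therefore not be set apart from background. At the same depth 33.6% and 61.6% of progenitors in the Apcdd1+/- libraries had no UMI of any of the 10 genes, against 31.9% and 40.7% in the WT libraries.

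Neural progenitors that had a Fos UMI had Egr1, Jun, Ier2, Btg2 and Dusp1 UMIs more often in 4 of 4 libraries, and Atf3 UMIs in 3 of 4, and Fosb, Junb and Jund were not compared. At 2000 UMIs per cell, Egr1 was found in 25.9% and 46.4% of cells with a Fos UMI in the Apcdd1+/- libraries, against 12.1% and 5.59% of their cells without it. In the WT libraries Egr1 was found in 36.5% and 30.9% of cells with a Fos UMI, against 18.6% and 9.62% of those without it. The exact 95% intervals for Egr1 in cells with and without a Fos UMI did not overlap in any library. Jun showed the same order in 4 of 4 libraries, from 59.3% against 46.9% in Apcdd1+/- replicate 1 to 66.1% against 23.1% in Apcdd1+/- replicate 2, and for Ier2 the gap, also positive in 4 of 4, was 5.99 percentage points in Apcdd1+/- replicate 1 and 25.0 in Apcdd1+/- replicate 2. The groups with a Fos UMI were small, with 263 and 56 cells in the Apcdd1+/- libraries and 181 and 55 in the WT libraries. Cells of a library share its preparation and are not replicates, so no test is given. The shares mix progenitors of all regions, and levels differed between regions. In Apcdd1+/- replicate 2, Fos stood at 43.4 CPM in floor plate and 6.37 CPM in telencephalon progenitors. Egr1 stood there at 194 and 30.3 CPM. In WT replicate 2 the same regions had 14.4 and 8.48 CPM of Fos, and 61.9 and 68.6 CPM of Egr1. The part of region in the gaps between cells with and without a Fos UMI was not tested.

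**Figure D3:**
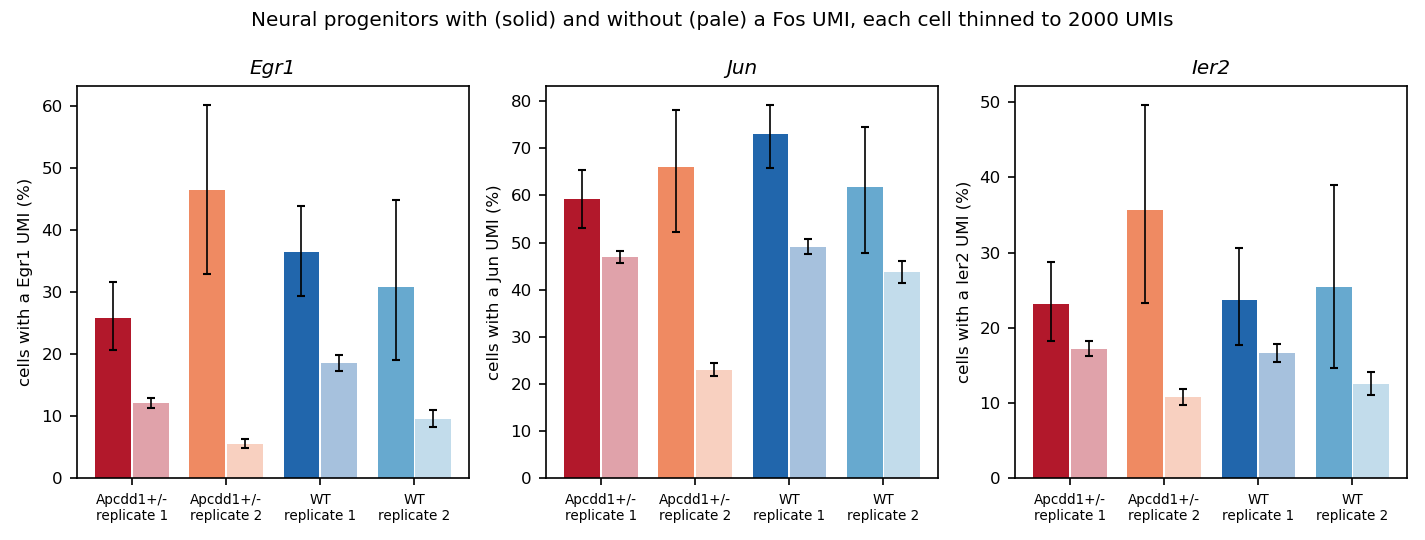
Share of neural progenitors with an Egr1, Jun or Ier2 UMI (y axes, percent, from 0), for cells with a Fos UMI (solid bars) and without (pale bars), in each library, with exact binomial 95% intervals. Apcdd1+/- replicate 2 has the widest gap for each gene, with pale bars of 5.59% (Egr1), 23.1% (Jun) and 10.8% (Ier2). The bars mix progenitors of all regions, and the part of region in the gaps was not tested.

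Within each class the libraries did not keep the same order, and Apcdd1+/- replicate 2 was lowest in some classes and highest in others. In neural progenitors it had the lowest level of the 4 libraries for 8 of the 10 genes, including all 7 with a mean of at least 5 CPM, and 28.6% of all genes above that mean were lowest there. Each percentage that follows is likewise over genes above that mean in the class. In neuroblasts it was lowest for 8 of 10 and 5 of the 6 above that mean (25.4%). In telencephalon progenitors the counts were 9 of 10 and 6 of 6 (28.3%). In the 1744 progenitors without a regional class they were 10 of 10 and 7 of 7 (29.9%). In mesenchyme, by contrast, it had the highest level for 7 of 10 and 6 of the 8 above that mean (25.3%). In macrophages it was highest for 7 of 10 and 6 of 9 (24.7%), and in endothelium for 9 of 10 and 9 of 9 (24.1%). In erythroid cells the counts were 8 of 10 and 6 of 7 (28.0%). WT libraries also stood apart. WT replicate 1 was highest for 8 of 10 in neural progenitors, including 7 of the 7 above that mean (10.8%). It was highest for 8 of 10 in midbrain progenitors (13.2%) and in progenitors without a regional class (13.6%). In mesenchyme WT replicate 2 was lowest for 6 of 10 (15.2%). Apcdd1+/- replicate 2 was also lowest for 6 of 10 in midbrain progenitors, and for 4 of the 6 above that mean (26.6%). In roof plate progenitors it was lowest for 6 of 10 and 6 of the 8 above that mean (25.6%). In epithelium, sensory neurons and floor plate progenitors other libraries stood apart. WT replicate 2 was highest for 9 of 10 in epithelium (25.9%) and 8 of 10 in sensory neurons (33.0%). In floor plate progenitors WT replicate 1 was highest for 9 of 10 (17.9%) and WT replicate 2 lowest for 7 of 10 (19.1%). Apcdd1+/- replicate 2 was lowest or highest for at most 3 of 10 in those 3 classes. These shares describe the pattern by which the genes were known and support nothing further.

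**Figure D4:**
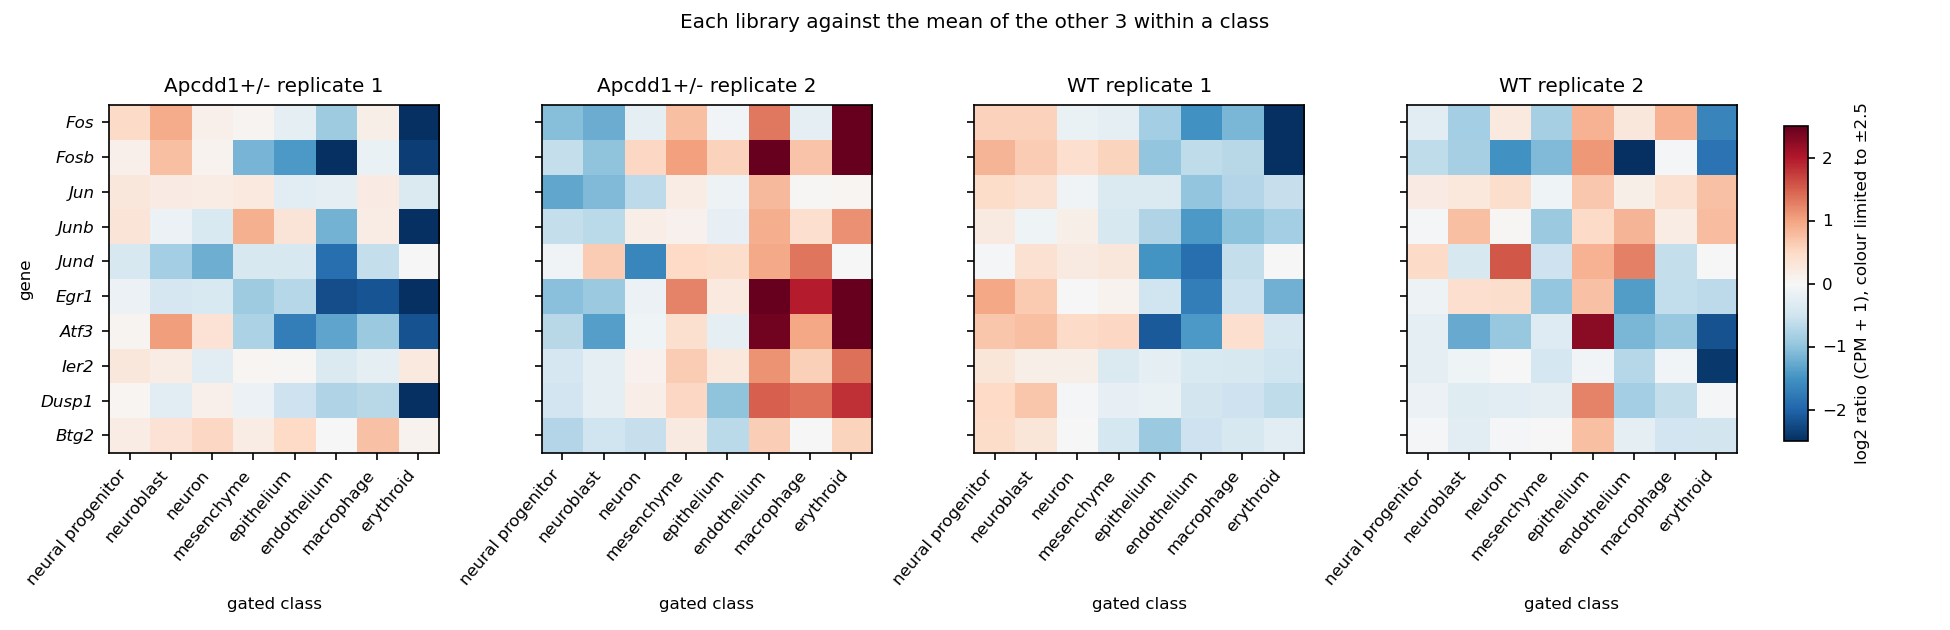
Log2 ratio of each library to the mean of the other 3 libraries (colour, from CPM + 1) for the 10 genes (rows) in 8 classes (columns), with Apcdd1+/- libraries left of WT. In Apcdd1+/- replicate 2, Egr1 is low in neural progenitors and neuroblasts and high in mesenchyme, endothelium, macrophages and erythroid cells.

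Egr1 is given in full as an abundant gene with this split. In mesenchyme it stood at 51.0 and 148 CPM in the Apcdd1+/- libraries, against 87.8 and 48.5 CPM in the WT libraries. In neural progenitors it stood at 75.4 and 45.0 CPM in the Apcdd1+/- libraries, against 128 and 76.1 CPM in the WT libraries. The ratio of mesenchyme to progenitors was thus 0.68 and 3.29 in the Apcdd1+/- libraries, against 0.68 and 0.64 in the WT libraries. For Fos the ratio was 0.73 and 2.53 in the Apcdd1+/- libraries, against 0.58 and 0.64 in the WT libraries, and for Jun it was 0.83 and 1.96 in Apcdd1+/- libraries against 0.55 and 0.72 in WT libraries. Apcdd1+/- replicate 2 had the highest ratio of the 4 libraries for 10 of 10 genes, while 30.3% of the 9187 genes with at least 5 CPM in both classes had their highest ratio there. Of these 10 genes, 7 met that minimum.

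The smaller classes held fewer cells but larger gaps. In the 32 erythroid cells of Apcdd1+/- replicate 2, 45 Fos UMIs were found in 13 cells, with 16 of them in 1 cell, whereas the 50 erythroid cells of Apcdd1+/- replicate 1 had 2 Fos UMIs and those of the WT libraries had 1 and 7. That made 77.8 CPM in Apcdd1+/- replicate 2 (exact Poisson 95% interval 56.7 to 104). Of these Fos UMIs, 57.8% lay in 2 cells. The intervals in this paragraph cover counting error only, not the spread between cells or libraries. In the 18 endothelial cells of Apcdd1+/- replicate 2, Egr1 reached 424 CPM (350 to 509), against 38.1 CPM in Apcdd1+/- replicate 1, and 52.4 and 64.7 CPM in the WT libraries. Atf3 reached 339 CPM (274 to 416) in the same cells, against 61.6 CPM in Apcdd1+/- replicate 1, and 57.3 and 69.1 CPM in the WT libraries. Of these Egr1 UMIs, 31.3% lay in 2 cells.

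Depth, RNA quality and marker levels of the libraries stood as follows beside this split. In neural progenitors the median share of mitochondrial UMIs was 2.03% and 1.91% in the Apcdd1+/- libraries and 2.08% and 2.16% in the WT libraries, and haemoglobin made up 0.00382% and 0.00465% of progenitor UMIs in the Apcdd1+/- libraries and 0.00381% and 0.00919% in the WT ones. Summed over 15 heat shock and dissociation chaperones, the level came to 16156 and 13926 CPM in progenitors of the Apcdd1+/- libraries, against 14527 and 14900 CPM in the WT libraries. In mesenchyme they summed to 18448 and 15578 CPM in the Apcdd1+/- libraries, against 15870 and 15758 CPM in the WT libraries. Apcdd1+/- replicate 2 was thus lowest for the chaperone sum in both classes, while the sum of the 10 genes was lowest there in progenitors (340 CPM, against 680 CPM in Apcdd1+/- replicate 1, and 789 and 623 CPM in the WT libraries) and highest in mesenchyme (740 CPM, against 581 CPM in Apcdd1+/- replicate 1, and 501 and 479 CPM in the WT libraries). The part of depth and RNA quality in the split was not tested.

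Between the genotypes, no gene among the 10 passed the test in any class tested. Endothelium, macrophages, erythroid cells and hindbrain progenitors had under 50 cells in at least 1 library and were not tested. Genes with low counts in a class were also left out, so that 6 of the 10 were tested in neuroblasts, 7 in neurons and 6 in sensory neurons. The comparison used UMIs summed per library and class, fitted across all genes with edgeR's quasi-likelihood test and Benjamini-Hochberg adjustment at 0.05. Over all cells it called 0 of 15966 genes (0.0%), with 188 (1.18%) at an unadjusted p under 0.05, and DESeq2 called 3. In neural progenitors it called 0 of 14731 genes (0.0%), with 220 (1.49%) under the unadjusted level, and DESeq2 called 0. In mesenchyme it called 0 of 12026 genes (0.0%), with 204 (1.7%) under the unadjusted level, and DESeq2 called 0. Among the other classes tested, edgeR called genes only in neurons outside the sensory class, 2 of 10650 (0.0188%), and DESeq2 none there.

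In neural progenitors all 10 log2 differences (Apcdd1+/- over WT) were negative, with a median of -0.34, where 52.4% of all genes were negative and their median was -0.0089. The lowest was that of Egr1, at -0.74 ± 0.30 (SE, n = 2 libraries per genotype, edgeR adjusted p = 1), which passed without the filter on low counts (-0.72). Without Apcdd1+/- replicate 1, Jun passed (-1.30) and the median was -0.85. Egr1 and Jund lay lower in both Apcdd1+/- libraries than in both WT libraries, as did 16.1% of all genes. For Jun the difference was -0.50 ± 0.34 and for Btg2 -0.31 ± 0.24. The direction rested on single libraries: without Apcdd1+/- replicate 2, 5 of the 10 differences were positive and the median was -0.0071, and without WT replicate 1, 6 of 10 were positive and the median was 0.073. In neuroblasts Egr1 stood at 88.5 and 65.6 CPM in the Apcdd1+/- libraries, against 154 and 137 CPM in the WT libraries, a log2 difference of -0.87 ± 0.22 with an edgeR adjusted p of 0.489. The difference passed without Apcdd1+/- replicate 1 (-1.15). Both Apcdd1+/- libraries lay below both WT libraries there, as for 15.9% of all genes tested in neuroblasts, of which edgeR called 0 of 10072 (0.0%), with 300 (2.98%) under the unadjusted level, and DESeq2 0. In midbrain progenitors Egr1 stood at 50.5 and 55.2 CPM in the Apcdd1+/- libraries, against 119 and 92.3 CPM in the WT libraries, a difference of -0.97 ± 0.19 that did not pass with edgeR (adjusted p = 1) and did without the filter on low counts, or without Apcdd1+/- replicate 2 (-1.02) or WT replicate 2 (-1.18). There 17.7% of genes lay below in both libraries, edgeR called 0 of 11849 (0.0%), with 250 (2.11%) under the unadjusted level, and DESeq2 0. All 9 of the genes tested in midbrain progenitors were negative, with a median of -0.43, where 49.2% of all genes were negative. Of these 9 genes, 4 lay under the unadjusted level. Jun stood at -0.86 ± 0.19 and Fos at -0.83 ± 0.27. With 1 library left out at a time, Jun ranged from -1.21 to -0.60 and Egr1 from -1.18 to -0.70. In roof plate progenitors Egr1 stood at 67.8 and 48.9 CPM in the Apcdd1+/- libraries, against 120 and 124 CPM in the WT libraries, a difference of -1.02 ± 0.22 that passed only without the filter or without Apcdd1+/- replicate 1 (-1.33). There 15.8% of genes lay below in both libraries, edgeR called 0 of 9738 (0.0%), with 257 (2.64%) under the unadjusted level, and DESeq2 0. All 8 of the genes tested in roof plate progenitors were negative, with a median of -0.54, where 50.1% of all genes were negative. Of these 8 genes, 2 lay under the unadjusted level. In the other regions the genotypes overlapped for Egr1. Its differences were -0.54 ± 0.34 in telencephalon progenitors, -0.29 ± 0.44 in floor plate progenitors and -0.83 ± 0.41 in progenitors without a regional class. Of the genes tested, 3 of 9 were positive in telencephalon progenitors and 2 of 8 in floor plate progenitors. In progenitors without a regional class 0 of 10 were positive.

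In mesenchyme 8 of the 10 differences were positive, with a median of 0.38, against 0.0042 for all genes. The count was 6 of 10 without Apcdd1+/- replicate 2. Ier2 stood at 146 and 194 CPM in the Apcdd1+/- libraries, against 117 and 113 CPM in the WT libraries, a difference of 0.58 ± 0.20. Fos stood at 15.6 and 22.0 CPM in the Apcdd1+/- libraries, against 13.1 and 9.12 CPM in the WT libraries, a difference of 0.71 ± 0.27. Junb stood at 5.55 and 3.54 CPM in the Apcdd1+/- libraries, against 2.47 and 1.56 CPM in the WT libraries, a difference of 1.12 ± 0.43. Both Apcdd1+/- libraries lay above both WT libraries for 6 of the 10 genes, Fos, Jun, Junb, Ier2, Dusp1 and Btg2, as they did for 11.3% of all genes. Each had an edgeR adjusted p of 1. For Egr1 the direction turned without Apcdd1+/- replicate 2, to -0.42, and for Fosb and Atf3 it also depended on single libraries.

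**Figure D5:**
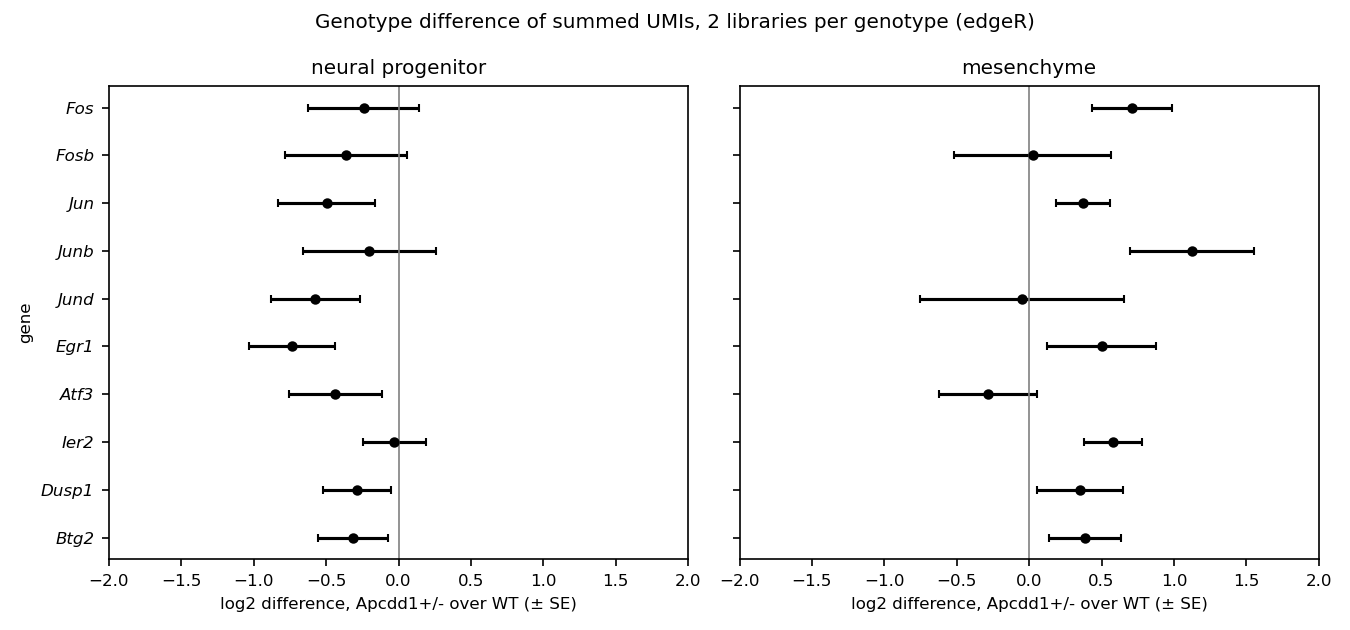
Log2 difference of Apcdd1+/- over WT (x axis) with its standard error for the 10 genes (rows) in neural progenitors (left) and mesenchyme (right), from 2 libraries per genotype. All 10 points lie below 0 in neural progenitors and 8 of 10 lie above 0 in mesenchyme, and none passed adjustment.

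The genotype difference in mesenchyme minus that in neural progenitors was estimated in 1 fit with the library as a term. These 2 classes were paired after the levels had been seen to differ in direction there, so the values are a description. All 10 were positive, with a median of 0.67 against -0.014 for all 14448 genes. The highest were those of Junb (1.44 ± 0.55), Egr1 (1.14 ± 0.38), Fos (1.01 ± 0.35) and Jun (0.97 ± 0.21). Over all genes edgeR called 0 (0.0%), with 596 (4.13%) at an unadjusted p under 0.05. Without the filter on low counts it called 19 of 20389 genes, with 4 of the 10 among them. The median was 1.38 without Apcdd1+/- replicate 1 and 0.88 without WT replicate 2. The pattern rested on Apcdd1+/- replicate 2: without it the median was 0.17, the value of Egr1 was -0.0047 and 4 of the 10 values were negative.

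Other lists of stress and signalling genes were tested in the same fits, and no gene of them passed. Of 33 other immediate early genes, 29 were tested in neural progenitors and none passed, with 10 positive, 19 negative and a median difference of -0.12. In mesenchyme 24 were tested and none passed, with 17 positive, 7 negative and a median of 0.19. Klf6, a zinc-finger factor induced by injury, stood at 87.6 CPM in mesenchyme of Apcdd1+/- replicate 2 and at 31.6 CPM in its progenitors, while Apcdd1+/- replicate 1 had 56.8 and 41.7 CPM, WT replicate 1 had 57.5 and 54.8 CPM, and WT replicate 2 had 84.5 and 64.3 CPM in these classes. Rhob, a small GTPase of the same early response, stood in progenitors at 81.2 and 58.1 CPM in the Apcdd1+/- libraries, against 93.3 and 99.5 CPM in the WT libraries. Zfp36l1, which destabilizes mRNAs, stood at 151 and 171 CPM in progenitors of the Apcdd1+/- libraries, against 136 and 181 CPM in the WT libraries. The 12 genes of ERK pathway feedback summed to 207 and 185 CPM in progenitors of the Apcdd1+/- libraries, against 217 and 212 CPM in the WT libraries, and none passed there or in mesenchyme. In mesenchyme 9 of these 12 were positive, with a median of 0.34. Among them Dusp6, the ERK phosphatase, stood at 78.1 and 79.4 CPM in the Apcdd1+/- libraries, against 62.5 and 54.7 CPM in the WT libraries, while Spred1 and Spred2 overlapped between the genotypes. Of the 14 genes of the integrated stress response and the 12 p53 targets, 13 and 11 were tested in progenitors and none passed, with medians of -0.083 and -0.052. The stress response genes, led by Atf4, Cebpg and Atf5, summed to 426 and 406 CPM in progenitors of the Apcdd1+/- libraries, against 494 and 444 CPM in the WT libraries. The p53 targets, among them Bax, Mdm2 and Zmat3, summed to 270 and 261 CPM in the Apcdd1+/- libraries, against 269 and 281 CPM in the WT libraries. The 14 neurogenesis genes, led by Cdkn1c, Gadd45g and Hes6, had a median of -0.33 in progenitors with 13 of 14 negative, and none passed. That list holds all 12 markers of the neuroblast gate. The chaperones, led by Hsp90ab1, Hsp90aa1 and Hspa8, had medians of 0.047 in progenitors and 0.11 in mesenchyme, and none of 15 passed.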

How the data were processed

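Raw UMI counts per gene and cell were deposited by the authors for 4 droplet libraries (2 labelled Apcdd1+/-, 2 labelled WT). Per the labels, the DNBelab C series software read the barcodes and UMIs. Per the file headers, the matrices were written by PISA 0.12. Scanpy 1.9.1 and the build mm10 appear in the submitters' processing notes without a stated role. The aligner was not given in the sources used here. Barcodes of Apcdd1+/- replicate 1 were listed for 3994 of its 9735 cells, so shared barcodes were counted over that part.

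Cells with at least 500 genes and under 10% mitochondrial UMIs were kept. A cell took the class with the largest share of its markers detected (at least 3), and was left out where a second lineage reached 50% of that share. Classes within neural progenitors and neurons needed 2 markers. The cells left out had a median of 18229 UMIs, no doublet caller was run, and neural crest (24 cells) and pigment cells (29) were too few to describe. The genes, the lists and the tests were chosen with earlier results of these data known. The rule on cells of more than 1 lineage was completed after marker counts had been seen.

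Levels are UMIs of a gene per 1000000 UMIs summed over a class and library with at least 20 cells, with exact Poisson 95% intervals, and shares have exact Clopper-Pearson intervals. A count of 0 was read as up to 3 counts. Intervals and floors cover counting error only. Cells were thinned to 2000 UMIs without replacement (1000 and 4000 as alternatives). Likeness is Pearson's r over 14 classes of log2(CPM + 10), for genes with a mean of at least 20 CPM, and the 3 most alike genes were listed for each. The text names all 10 genes, and of each other list the genes past the threshold or else the 3 most abundant.

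Genotypes were compared in classes with at least 50 cells in every library with edgeR 4.0.16 (TMM, filterByExpr, quasi-likelihood test, R 4.3.3), tested on simulated data, and with DESeq2 1.42.0 as an alternative. Python 3.11.15, numpy 2.4.6, scipy 1.17.1, pandas 2.3.3 and matplotlib 3.10.9 were used. Gene models are those of GENCODE and promoters those of RefSeq.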

Additional observations from a re-analysis of the deposited data

Results flagged for a closer look

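For 4 of the genes, both Apcdd1+/- libraries lay above both WT libraries in one class and below both in another. Such separation arises in both directions across all genes (for example 11.3% above in mesenchyme and 15.8% below in roof plate progenitors), and the difference between the classes was not tested for these pairs. The values are the log2 difference (Apcdd1+/- over WT) in the class where both libraries lay above, minus that in the class where both lay below. For Fos, mesenchyme against midbrain progenitors gave 1.54 and mesenchyme against roof plate progenitors 1.12. For Jun, mesenchyme gave 0.83 against neuroblasts, 1.23 against midbrain progenitors and 0.92 against roof plate progenitors. For Btg2, mesenchyme gave 0.82 against midbrain progenitors and 0.85 against roof plate progenitors. For Dusp1, mesenchyme gave 1.45 against epithelium and 0.92 against roof plate progenitors, neurons gave 1.36 and 0.83 against the same pair, and neurons outside the sensory class gave 1.61 and 1.08.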

How the results depend on the processing

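Low counts limit Jund and Junb, and the 2 libraries per genotype limit every genotype comparison. Of 40 log2 differences of single genes, all kept their direction with RLE size factors. Over all cells, 3 genes were called with DESeq2 and 3 without the filter on low counts. Without that filter, 10 were called in neural progenitors, 19 in neuroblasts, 6 in mesenchyme, 9 in telencephalon progenitors, 6 in midbrain progenitors, 2 in floor plate progenitors, 4 in roof plate progenitors, 19 in other neural progenitors, 6 in sensory neurons, 5 in other neurons (2 with it) and 19 for mesenchyme minus neural progenitors. DESeq2 called 1 gene in other neural progenitors and 0 in other neurons. In neuroblasts, a gate of 2 markers gave 2 and cells of more than 1 lineage put in their best class gave 3. In other neurons, gates of 2 and 4 markers gave 1 and 0. The cause was not tested. In mesenchyme, Jund turned to 0.15 with DESeq2 and to 0.053 with all deposited barcodes, and Fosb (0.024) turned to -0.10 with a gate of 2 markers and to -0.11 with 4.

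Same-numbered libraries share only a number: their deviations correlated by 0.011 to 0.26 over the 13 comparisons, and the labels give no pairing. With a replicate block, 5 genes were called over all cells, 20 in neuroblasts, 1 in neurons, 16 in telencephalon progenitors, 4 in midbrain progenitors, 1 in floor plate progenitors, 2 in other neural progenitors, 1 in sensory neurons and 11 in other neurons, Fosb in mesenchyme turned to -0.10, and Egr1 in neuroblasts (-0.88) and midbrain progenitors (-0.96) and Jun in midbrain progenitors (-0.89) passed.

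Leaving out each library in turn, with the lone library assumed to vary like the others, gave 0 to 222 called genes over all cells, 0 to 151 in neural progenitors, 3 to 30 in neuroblasts, 0 to 179 in neurons, 0 to 24 in mesenchyme, 0 to 20 in epithelium, 0 to 91 in telencephalon, 0 to 37 in midbrain, 3 to 24 in floor plate, 0 to 35 in roof plate and 0 to 19 in other neural progenitors, 0 to 104 in sensory neurons, 5 to 59 in other neurons and 10 to 29 for mesenchyme minus neural progenitors. The log2 difference ranged over all cells from -0.77 to 0.12 for Jun and from -0.083 to 0.35 for Ier2. In neural progenitors it ranged from -1.07 to 0.27 for Fos, -0.89 to 0.57 for Fosb, -1.30 to 0.024 for Jun, -1.31 to 0.34 for Junb, -0.89 to 0.086 for Atf3, -0.35 to 0.27 for Ier2, -0.56 to 0.061 for Dusp1 and -0.75 to 0.026 for Btg2. In mesenchyme it ranged from -1.15 to 1.26 for Fosb, -0.42 to 1.13 for Egr1 and -0.82 to 0.24 for Atf3. For mesenchyme minus neural progenitors it ranged from -1.03 to 1.64 for Fosb, -0.18 to 1.91 for Jund, -0.0047 to 2.26 for Egr1 and -0.68 to 1.04 for Atf3.

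Of 80 class levels, 80 moved by less than 1 SD with a gate of 2 markers and 79 with 4. Cells of more than 1 lineage put in their best class, an alternative chosen after seeing the data, moved 9, among them Atf3 in endothelium (138 CPM) and Jun in erythroid cells (53.4 CPM). Shares of cells with a UMI depend on the thinning depth: 49 of 80 moved at 1000 UMIs and 55 at 4000.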
